A study of Mus musculus with 4 samples.

Results

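The cells described here are zygotene-like spermatocytes of the mouse testis that carry *Psma8*, which encodes a proteasome subunit of spermatocytes. They were chosen from unique molecular identifier (UMI) counts of single cells by a rule on the counts themselves. A barcode had to have more than 1000 detected genes and less than 10% of its UMIs from mitochondrially encoded genes. Its summed *Prdm9*, *Dmc1* and *Meiob* UMIs had to reach 5 per 10000 UMIs, and it needed at least 2 *Psma8* UMIs. It also had to stay below 5 *Fabp9* UMIs per 10000, which leaves out the pachytene-like cells. It could have at most 2 UMIs together of *Plk1* and *Ccnb1*, which are genes of cell division. These limits left 368 members among 29592 filtered barcodes. The 7 genes of the rule are given below as description, with no test.

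Dissociated cells of whole testes were profiled from 4 pups of strain C57BL/6N at postnatal day 15, of which 2 were wild type and 2 were *Meioc*-null. Each library came from 1 testis of 1 pup, and each of the 2 batches was a littermate pair with 1 pup of each genotype. The null allele was *Meioc*tm1.1Dpc, and pups of both genotypes were also heterozygous for *Hspa2*tm1Dix and homozygous for a *ROSA26*-tdTomato reporter whose stop cassette was not removed. The study asked how loss of *Meioc*, a germ-cell gene whose protein works with YTHDC2 and RBM46 on messenger RNA, changes the transcriptome around meiotic entry.

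Zygotene follows leptotene in the first meiotic prophase. In leptotene the chromosome axes form and SPO11 makes programmed DNA breaks at sites marked by PRDM9. In zygotene DMC1 filaments search for the homologous chromosome, with MEIOB on the single-stranded DNA, and the synaptonemal complex starts to join the homologs. In pachytene synapsis is complete, the sex chromosomes are silenced and genes for later sperm formation come on.

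Below, the 4 values of a gene or class are those of wild type 1, wild type 2, *Meioc*-null 1 and *Meioc*-null 2, where the number is the replicate and also the litter. Levels are in CPM, the counts per 1000000 UMIs summed over the cells of a class in a library, and they are compared only within a gene. The members held 1463326, 2780688, 356458 and 711995 UMIs, so that 1 UMI stood for 0.683, 0.360, 2.81 and 1.40 CPM. The *Meioc*-null levels therefore rest on fewer cells and UMIs, and low values there are the least precise. A member had a median of 12986, 12110, 11680.5 and 14371.5 UMIs, which overlapped between genotypes (exact two-sided permutation test over libraries, p = 1). With 2 libraries against 2, this test cannot give a p below 0.33.

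Pairs of libraries shared 45 to 73 barcodes, and none of these was a member in both libraries of a pair. A doublet score would have removed 6, 15, 3 and 5 members, and they were kept. Summed levels of 6 Sertoli markers in members were 114, 61.1, 107 and 52.0 CPM, against 1687 to 3833 CPM in barcodes gated as Sertoli cells. The gate chose these Sertoli-gated barcodes by *Sox9*, *Cldn11*, *Aard* and *Rhox8*, which are among the 6. It therefore set much of this contrast. *Sox9* was at 0 in members of both *Meioc*-null libraries and *Gata4* in those of *Meioc*-null replicate 2. The 6 Leydig markers summed to between 2.81 and 8.42 CPM, with *Insl3*, *Cyp11a1* and *Cyp17a1* at 0 in every library. The 6 macrophage markers summed to between 0.360 and 2.81 CPM, with *C1qa*, *Itgam*, *Adgre1* and *Csf1r* at 0 in every library. The 5 endothelial markers summed to between 12.3 and 16.8 CPM, with *Tm4sf1* at 0 in every library. The 7 markers of undifferentiated spermatogonia summed to between 11.6 and 26.7 CPM, with *Lhx1* at 0 in every library. The 5 peritubular myoid markers were more uneven, at 99.1, 12.2, 70.1 and 439.6 CPM, with *Meioc*-null replicate 2 the highest. In Sertoli-gated barcodes they summed to 9755, 10336, 7976 and 13089 CPM, above the Sertoli markers there (3543, 2957, 3833 and 1687 CPM). Those barcodes were therefore not Sertoli cells alone, and they serve below as a reference that also holds myoid markers. The part of these other cells in the results below was not tested. None of the Leydig, myoid, endothelial, macrophage or undifferentiated markers reached the detection limit for testing, and 1 Sertoli marker, *Aard*, did and did not pass the test. The 5 germ-cell markers summed to 3249, 3117, 3355 and 3145 CPM in members, against 11.3 to 51.9 CPM in Sertoli-gated barcodes. The gate of those barcodes required no *Ddx4* or *Dazl* UMI, and both genes are among the 5, so it set part of this contrast.

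*Meioc* itself, the targeted gene, was counted at 517 and 518 CPM in wild-type members and at 757 and 712 CPM in *Meioc*-null members. Which part of *Meioc* the allele lacks, and whether these 3′ reads fall in it, was not checked here, so these counts do not check the labels. The *Meioc*-null libraries were the higher ones, with a log2 fold change (wild type over *Meioc*-null throughout) of −0.45 and an edgeR adjusted p of 0.024, and this call was lost when any 1 library was left out, with log2 fold changes of −0.42 to −0.50.

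Of the 6 genes that mark the label, *Psma8*, *Dmc1* and *Meiob* belong to the rule, so *Ly6k*, *Tex101* and *Ccnb3* were used to check it. *Ly6k*, a GPI-anchored surface protein of germ cells, had 1082, 1119.9, 1689 and 1407 CPM in members and 9.19 to 33.0 CPM in Sertoli-gated barcodes. It was present at similar levels in the cells that met the same rule except that *Psma8* was at 0 (1000.3, 1048, 1164 and 1342 CPM), which are called leptotene-like here. *Tex101*, which encodes another such protein, LY6K's partner, had 2198, 1722, 3187 and 2347 CPM in members and 2253, 1958, 2223 and 2193 CPM in leptotene-like cells. Both genes therefore set the members apart from Sertoli-gated barcodes, where *Tex101* had 17.7 to 88.0 CPM, and neither set them apart from leptotene-like cells. *Ccnb3*, an X-linked meiotic cyclin gene, had 173, 186, 479.7 and 423 CPM in members. Its levels were 136, 222, 141 and 223 CPM in leptotene-like cells, and 2.04 and 5.37 CPM in the wild-type cells over the *Fabp9* limit, which are called pachytene-like here. *Ccnb3* thus set members apart from pachytene-like cells. In wild type it did not set them apart from leptotene-like cells, as with *Ly6k* and *Tex101*. In members both *Meioc*-null libraries were above both wild-type ones.

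Promoter sequences are shown for 4 genes whose levels carry the results on genotype below, 3 of which were higher in *Meioc*-null members (*Smc1b*, *Syce2*, *Zcwpw1*) and 1 in wild-type members (*Mnd1*). Each runs 5′ to 3′ on the gene's strand from 250 bases before to 50 after the transcription start of the RefSeq table (build GRCm38.p6). The positions are chr15:85131908-85132207 on the minus strand (*Smc1b*), chr8:84872008-84872307 on the plus strand (*Syce2*), chr5:137787081-137787380 on the plus strand (*Zcwpw1*) and chr3:84155737-84156036 on the minus strand (*Mnd1*). Capitals mark matches on either strand to CACGTG (the E-box), TTCCCGC (an E2F site) or CCTCAG (the core of the motif bound by STRA8-MEIOSIN).
Smc1b: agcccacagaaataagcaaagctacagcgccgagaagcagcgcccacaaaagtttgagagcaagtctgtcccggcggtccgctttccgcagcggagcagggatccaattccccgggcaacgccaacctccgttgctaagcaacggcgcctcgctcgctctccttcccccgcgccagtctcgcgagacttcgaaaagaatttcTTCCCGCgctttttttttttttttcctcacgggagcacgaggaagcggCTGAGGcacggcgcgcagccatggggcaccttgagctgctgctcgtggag
Syce2: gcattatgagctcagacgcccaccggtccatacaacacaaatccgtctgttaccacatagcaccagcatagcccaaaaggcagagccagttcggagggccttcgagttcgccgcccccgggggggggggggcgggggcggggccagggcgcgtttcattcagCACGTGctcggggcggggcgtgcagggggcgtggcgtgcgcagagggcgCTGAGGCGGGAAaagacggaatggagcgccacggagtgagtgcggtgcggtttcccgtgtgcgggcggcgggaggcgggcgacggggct
Zcwpw1: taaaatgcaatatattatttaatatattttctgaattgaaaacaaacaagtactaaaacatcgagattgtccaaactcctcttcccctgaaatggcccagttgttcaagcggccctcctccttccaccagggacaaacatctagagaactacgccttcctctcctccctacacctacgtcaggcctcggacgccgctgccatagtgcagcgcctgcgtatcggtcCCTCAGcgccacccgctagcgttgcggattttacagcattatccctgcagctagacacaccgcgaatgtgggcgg
Mnd1: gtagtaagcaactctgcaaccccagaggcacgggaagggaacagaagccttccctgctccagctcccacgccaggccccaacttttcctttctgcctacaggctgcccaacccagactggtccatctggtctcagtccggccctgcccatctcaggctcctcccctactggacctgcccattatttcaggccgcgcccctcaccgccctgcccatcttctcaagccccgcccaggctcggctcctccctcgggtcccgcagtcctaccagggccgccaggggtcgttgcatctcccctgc
The *Smc1b* promoter held an E2F match and a core match, the latter at the start site. The *Syce2* promoter held all 3, with the core and E2F matches overlapping by 1 base, while the other start that the table lists for *Syce2*, which is the gene start of GENCODE (84872111), had none in its window. The *Zcwpw1* window held a core match; it belongs to a RefSeq start upstream of the gene start of GENCODE (137787798), and the window at the other listed start held none, and the *Mnd1* promoter held none. Over all 32851 promoters of the same length, 7.15% held the E-box, 4.60% the E2F site and 26.8% the core. Of the tested genes with a promoter, 13.1, 11.9 and 31.9% held them. The 4 genes shown do not stand for all called genes, whose shares are given below.

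The members formed a smaller share of the *Meioc*-null libraries. They numbered 100 of 6334 filtered barcodes (1.58%, 95% exact binomial interval 1.29 to 1.92%) and 198 of 8494 (2.33%, 2.02 to 2.67%) in wild type. In *Meioc*-null they numbered 28 of 7550 (0.371%, 0.247 to 0.536%) and 42 of 7214 (0.582%, 0.420 to 0.786%). These intervals cover counting error only. Both wild-type shares were above both *Meioc*-null shares, with means of 1.95% ± 0.532 and 0.477% ± 0.149 (SD, n = 2), which is a ratio of 4.10. This ratio depended on the limits of the rule, and was 1.72 at a meiotic sum of 8 per 10000, 2.32 with at least 1 *Psma8* UMI, 11.4 with at least 3 and 2.57 with no limit on *Plk1* and *Ccnb1*. It was 1.91 for members with a *Prdm9* UMI and 2.51 for those with no *Fabp9* UMI. At a meiotic sum of 8 the shares were 0.521, 0.624, 0.291 and 0.374%, and the binomial intervals of the genotypes overlapped. The exact permutation test gave p = 0.33, the smallest it can give here, and the differences within the batches were 1.21 and 1.75 percentage points. Of the barcodes over the limit on summed *Prdm9*, *Dmc1* and *Meiob* alone, which numbered 985, 1749, 1591 and 1276, members made up 10.2, 11.3, 1.76 and 3.29%.

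**Figure D1:**
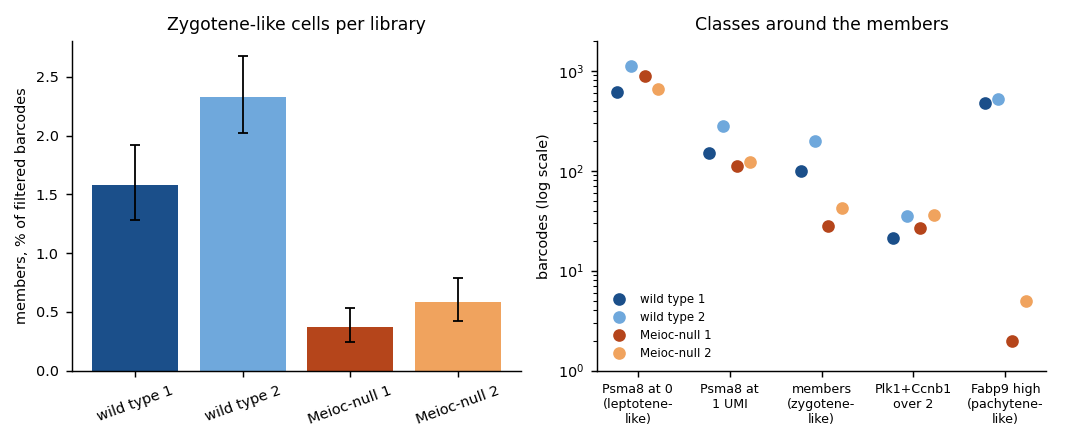
The left panel shows members as a percentage of filtered barcodes in each library, with bars from 0 and 95% exact binomial intervals, and both wild-type bars (1.58 and 2.33%) stand above both *Meioc*-null bars (0.371 and 0.582%). The right panel shows the number of barcodes on a log axis for the classes that the rule sets apart, 1 point per library, and the pachytene-like class holds 475 and 517 wild-type but 2 and 5 *Meioc*-null barcodes.

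The classes next to the members in the rule were also counted. Genes that differed between genotypes set their limits, so these counts cannot place the stage at which the genotypes parted. Leptotene-like cells numbered 618, 1108, 897 and 656, and their shares of filtered barcodes overlapped between genotypes. This overlap depended on the limits of the rule. With no limit on *Plk1* and *Ccnb1* they numbered 628, 1134, 1343 and 998, and both *Meioc*-null shares were above both wild-type ones. That limit thus removed a larger share of *Meioc*-null leptotene-like cells. At a meiotic sum of 8 per 10000 they numbered 316, 670, 362 and 350, and both wild-type shares were above both *Meioc*-null ones. Cells with exactly 1 *Psma8* UMI, just outside the limit, numbered 149, 283, 111 and 123. Cells with exactly 2, just inside it, numbered 45, 99, 24 and 33. Barcodes that met the limits for pachytene-like cells numbered 475, 517, 2 and 5. The 7 *Meioc*-null ones had median totals of 1763 and 1949 UMIs, against 21245 and 35335 in wild type, and none had a *Psma8*, *Meiob* or *Piwil1* UMI, so they are counted by the rule alone and not described as that class. Among barcodes that otherwise met the *Psma8* and meiotic limits, those with more than 2 *Plk1* and *Ccnb1* UMIs numbered 21, 35, 27 and 36. They were 17.4, 15.0, 49.1 and 46.2% of such barcodes, so this limit removed a larger share of the *Meioc*-null barcodes. Those removed had median totals of 20745, 18871, 15426 and 18563.5 UMIs. X-linked genes made up 1.70, 1.71, 3.63 and 3.71% of their nuclear UMIs, against 2.38, 2.28, 3.50 and 3.32% in members. In this share they were below members in both wild-type libraries and above them in both *Meioc*-null ones. Whether they were dividing cells was not tested. The *Fabp9* limit left out 51 and 79 wild-type barcodes that met the meiotic and *Psma8* limits and no *Meioc*-null barcode.

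Members of the genotypes also differed in the genes that chose them. Their *Psma8* UMIs had medians of 3, 2.5, 2 and 2 and maxima of 12, 12, 4 and 6, so most *Meioc*-null members lay at the limit. *Psma8* was at 219, 216, 174 and 139 CPM. *Dmc1* was at 215, 229, 477 and 414 CPM, *Prdm9* at 73.1, 64.0, 224 and 228 CPM and *Meiob* at 425, 411, 292 and 251 CPM. *Fabp9*, which encodes a fatty-acid-binding protein of spermatocytes and sperm, was at 88.2, 77.3, 5.61 and 14 CPM. Wild-type members therefore lay lower in *Prdm9* and *Dmc1* and higher in *Fabp9* than *Meioc*-null members. A *Prdm9* UMI was present in 44 of 100, 76 of 198, 23 of 28 and 38 of 42 members, and 49, 114, 26 and 36 members had no *Fabp9* UMI. These differences stand beside every comparison of genotypes below. For that reason, counts over the gene lists are also given for members with a *Prdm9* UMI and for members with no *Fabp9* UMI where they moved by more than 1.5 times.

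Within wild type, the members lay between leptotene-like and pachytene-like cells for genes of both ends of the series. These levels are a description, since *Psma8* and *Fabp9* chose the classes. Among genes at 50 CPM or more, those with the largest ratio of members to leptotene-like cells were *Gm10505*, *A830018L16Rik*, *Meig1*, *Rsph1*, *Tktl2*, *Pdcl2*, *Ago2*, *Kctd19*, *1700102P08Rik* and *Resf1*. *Rsph1*, which encodes a radial spoke protein of the sperm tail, went from 42.4 and 35.4 CPM in leptotene-like cells to 577 and 509 CPM in members and 2965 and 2526 CPM in pachytene-like cells. *Meig1*, needed for building the sperm tail, went from 37.1 and 29.8 CPM to 286 and 277 CPM and then to 3068 and 2749 CPM. *Hspa2*, a spermatocyte heat-shock protein gene for which all pups carried 1 altered allele, went from 86.0 and 78.6 CPM to 309 and 282 CPM and then to 1149 and 971 CPM. These 3 genes thus had their highest level in pachytene-like cells.

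A few of the genes with the largest ratios had their highest level in the members. *Resf1*, a gene for a retroelement silencing factor, was at 10.3 and 16.3 CPM in leptotene-like cells, 95.7 and 122 CPM in members and 42.3 and 61.9 CPM in pachytene-like cells. *A830018L16Rik* was at 4.26 and 4.09 CPM, 77.2 and 86.7 CPM and 18.4 and 25.4 CPM in the same order. *Kctd19*, which is needed for completing meiosis, was at 7.15 and 8.96 CPM in leptotene-like cells, 86.1 and 94.6 CPM in members and 171 and 171 CPM in pachytene-like cells. *1700102P08Rik* was at 9.13 and 15.1 CPM, 114 and 144 CPM and 448 and 445 CPM. Both genes therefore had a higher level in each later class, unlike *Resf1* and *A830018L16Rik*.

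Other genes had their highest wild-type level in leptotene-like cells. *Stra8*, the transcription factor gene of meiotic entry, was at 1224 and 817 CPM in leptotene-like cells, 292 and 131 CPM in members and 26.7 and 28.8 CPM in pachytene-like cells. *Gm4969*, which encodes MEIOSIN, the partner of STRA8, was at 86.3 and 88.5 CPM, 15.7 and 18 CPM and 0.510 and 1.26 CPM. *Zcwpw1*, a reader of the histone marks that PRDM9 makes, was at 1069 and 1167 CPM, 306 and 347 CPM and 88.3 and 106 CPM. *Spo11* did not share this order, at 67.4 and 97.4 CPM, 118 and 95.3 CPM and 68.2 and 53.4 CPM. The axis gene *Sycp3* was highest in members, at 2452 and 2937 CPM in leptotene-like cells, 3714 and 4371 CPM in members and 2085 and 2723 CPM in pachytene-like cells. *Sycp1*, which encodes the transverse filament of the synaptonemal complex, was also highest in members, at 2194 and 3452 CPM, 3351 and 4449 CPM and 2284 and 3188 CPM.

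**Figure D2:**
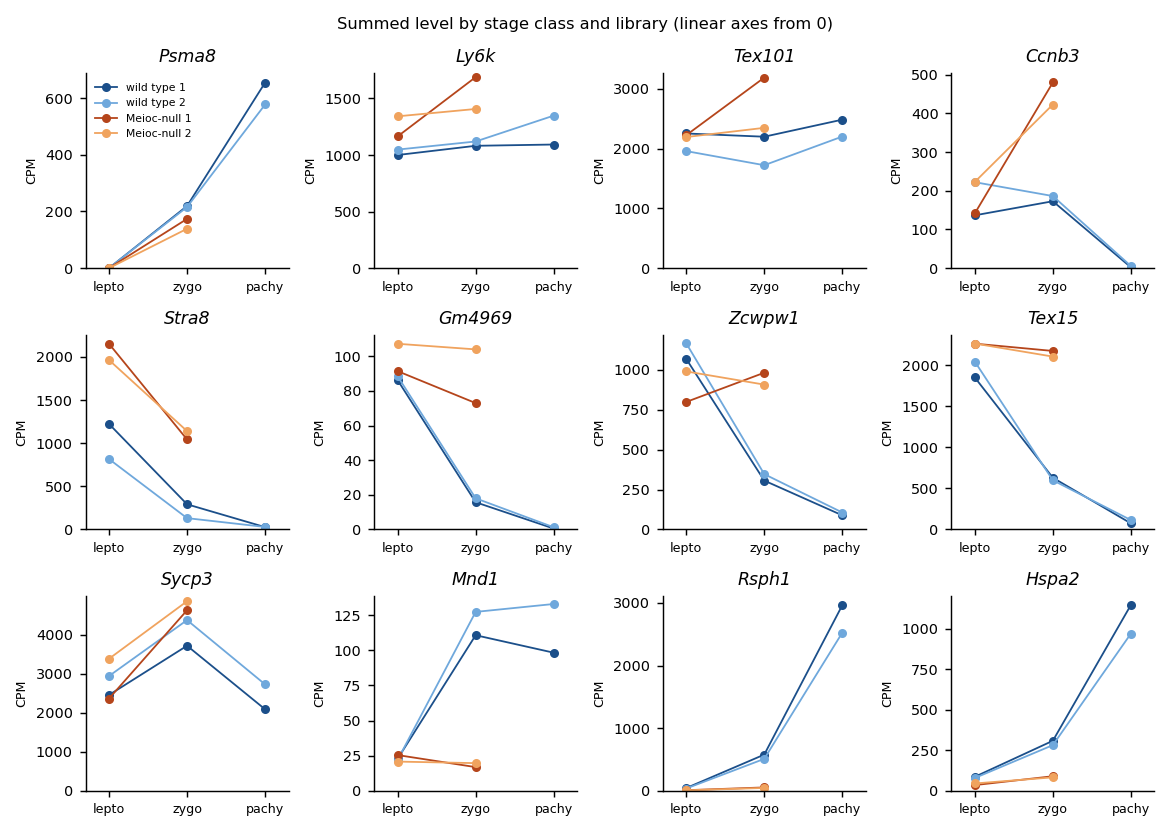
Summed level in CPM (linear axes from 0) of 12 genes in leptotene-like, zygotene-like (the members) and, for wild type only, pachytene-like cells, with 1 line per library. *Stra8*, *Gm4969*, *Zcwpw1* and *Tex15* are lower in members than in leptotene-like cells of wild type, while *Zcwpw1* and *Tex15* lie near their leptotene-like levels in *Meioc*-null; *Mnd1*, *Rsph1* and *Hspa2* are higher in wild-type than in *Meioc*-null members.

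The genotype comparison asked which genes differed in level between wild-type and *Meioc*-null members. Of 6681 genes tested, 1314 passed with a higher level in wild type (19.7%) and 1420 with a higher level in *Meioc*-null (21.3%), together 2734 (40.9%), by edgeR's quasi-likelihood test on sums per library with an adjusted p under 0.05. A gene is said to pass toward the genotype in which it was higher. The median log2 fold change over all genes tested was −0.01. Without the detection filter 1638 and 1192 genes passed, so the larger share was then toward wild type. Both libraries of 1 genotype lay above both of the other for 70.2% of all genes tested (32.7% with wild type above, 37.5% with *Meioc*-null above), so such a separation of single genes below is common among all genes. In both batches the direction was the same for 1311 of the 1314 and for 1412 of the 1420, which a call from the same libraries nearly fixes, and for 79.7% of all genes tested. Among members with a *Prdm9* UMI the same test called 593 and 726 of 6778 genes (8.75 and 10.7%), and among members with no *Fabp9* UMI 771 and 923 of 6596 (11.7 and 14%). The counts of lists in these subsets, given below, stand beside these lower shares. Sertoli-gated barcodes were set beside the calls as a reference for free RNA. Their difference between genotypes reached at least 50% of that of members, in the same direction, for 20 of the 1314 and 33 of the 1420 genes. Their gate required no *Ddx4* or *Dazl* UMI, which can favour barcodes with little free germ-cell RNA, and they hold transcripts of their own. These counts therefore do not measure free RNA.

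The largest differences were ranked among called genes with at least 50 CPM in a genotype and the same direction in both batches. Among the 12 genes with the largest difference toward wild type were *Gm10505*, *A830018L16Rik*, *Meig1* and *Rsph1*, which also led the comparison with leptotene-like cells. *Gm10505*, a processed transcript without protein annotation (chromosome 17, 27325035 to 27344833, GRCm38) had 223, 163, 0 and 0 CPM. Its 781 wild-type UMIs made it at least 65.5-fold higher against the floor of 3 counts over the *Meioc*-null members, and 27.9% of wild-type members had a UMI. In wild-type pachytene-like cells it was at 435 and 458 CPM. *A830018L16Rik* had 354 wild-type and 3 *Meioc*-null UMIs, at 77.2, 86.7, 0 and 4.21 CPM, which is a ratio of 29.7 with a 95% counting interval of 10.1 to 145. *Rsph1* (chromosome 17, 31255019 to 31277383) had 577, 509, 53.3 and 44.9 CPM (log2 fold change 3.54, SE 0.19, edgeR adjusted p = 4.9e-15). *Meig1* had 286, 277, 19.6 and 23.9 CPM (3.68 ± 0.21, SE here and below). Both wild-type libraries were above both *Meioc*-null ones in each of these genes, which their choice by size nearly fixes. In Sertoli-gated barcodes of the *Meioc*-null libraries *Meig1* was at 57.7 and 24.6 CPM, above its level in members, and *Rsph1* at 43.6 and 20.5 CPM, below it.

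Another 7 of the 12 had log2 fold changes between 2.65 and 3.20. *Mnd1* (chromosome 3, 84087933 to 84155786), whose protein with that of *Psmc3ip* stimulates strand exchange by DMC1, had 111, 127, 16.8 and 19.7 CPM (2.72 ± 0.27, edgeR adjusted p = 2.6e-09). *Brd1*, for a bromodomain protein of histone acetyltransferase complexes, had 105, 122, 22.4 and 9.83 CPM (3.06). *Ago2*, for an Argonaute protein of small-RNA silencing, had 63.6, 73.0, 11.2 and 11.2 CPM (2.65). In all 3 genes both wild-type libraries were above both *Meioc*-null ones. *B9d1*, for a protein of the ciliary transition zone, had a log2 fold change of 3.20, *Tktl2*, for a transketolase-like protein, 2.86, *Pdcl2* 2.73 and *Mapkbp1* 2.69. *B9d1*, at 47.2, 53.2, 0 and 8.43 CPM, had few UMIs in *Meioc*-null.

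By the same limits, the 12 genes with the largest difference toward *Meioc*-null had log2 fold changes between −3.94 and −2.52. *Snrpn*, an imprinted gene for a splicing protein (chromosome 7, 59982495 to 60140219) that shares its transcript with *Snurf*, had 4.78, 3.60, 72.9 and 60.4 CPM (log2 fold change −3.94 ± 0.36, edgeR adjusted p = 4.8e-10). *Pclaf*, for a PCNA-binding protein of DNA replication, had 2.73, 8.27, 67.3 and 63.2 CPM (−3.30). *Rrm2b*, for a ribonucleotide reductase subunit induced by p53, had 21.2, 18.3, 213 and 176 CPM (−3.24). In each of these genes both *Meioc*-null libraries were far above both wild-type ones. *Cenpa*, for the histone variant of centromeres, had 18.5, 18.7, 121 and 107 CPM (−2.54). *Sys1*, for a protein of Golgi trafficking, had 47.2, 38.5, 233 and 257 CPM (−2.52). *Sgpl1*, for sphingosine-1-phosphate lyase, had 32.8, 27.7, 269 and 195 CPM (−2.87). Both *Meioc*-null libraries were above both wild-type ones in these genes too.

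*Gapdh*, the glycolytic enzyme gene, had 111, 73.4, 654 and 601 CPM (−2.76). Its many near-identical pseudogenes make its count uncertain, and its level in Sertoli-gated barcodes was 607 to 933 CPM. *Olfr889*, an odorant receptor gene, had 8.88, 7.19, 67.3 and 57.6 CPM (−2.91) and 53.1 to 67.8 CPM in Sertoli-gated barcodes of every library. The level of both genes in *Meioc*-null members was therefore close to that in Sertoli-gated barcodes. *Gdap1*, for a mitochondrial protein, had a log2 fold change of −3.30, *Esrp1*, for a splicing regulator, −2.98, *Zfp467*, for a zinc finger protein, −2.63 and *Nacad* −2.53. All 12 genes toward *Meioc*-null and 9 of 12 toward wild type were also called among members with a *Prdm9* UMI, where *Gm10505*, *A830018L16Rik* and *Ago2* were not tested. Among members with no *Fabp9* UMI, where *Gm10505* was not tested, all 12 toward *Meioc*-null and 11 of 12 toward wild type were called.

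**Figure D3:**
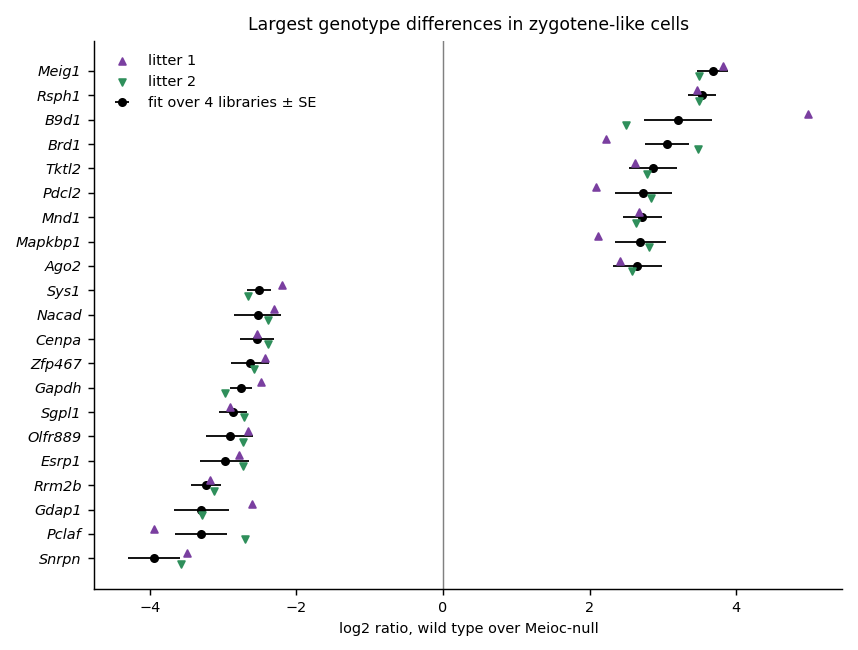
Log2 ratio of wild type over *Meioc*-null in members for 21 of the 24 genes with the largest called differences; black points are the edgeR fit over 4 libraries with its SE, and triangles are the ratio within each littermate pair. *Gm10505* and *A830018L16Rik*, with 0 and 3 *Meioc*-null UMIs, are among those left out. The genes shown run from *Meig1* at 3.68 to *Snrpn* at −3.94, and their rule required the same sign in both litters and at least 50 CPM in a genotype.

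By role, most lists of early prophase had more genes higher in *Meioc*-null members, with the direction of single genes mixed. In leptotene-like cells these lists had more calls toward wild type. Of 9 break-formation, 15 strand-exchange, 14 axis, 9 crossover and 8 telomere genes tested there, 4, 3, 3, 2 and 4 passed toward wild type. Toward *Meioc*-null 0, 0, 1, 0 and 0 passed, beside 8.99% of all genes toward wild type and 13.8% toward *Meioc*-null. Among members with a *Prdm9* UMI, the strand-exchange and crossover lists had shares toward *Meioc*-null near the 10.7% of all genes. The break-formation, axis and telomere lists stayed above it, on few genes. Of 8 break-formation genes tested, 1 passed toward wild type and 4 toward *Meioc*-null, with a median log2 fold change of −0.78 beside −0.01 over all genes. *Zcwpw1* had 306, 347, 982 and 907 CPM (−1.47 ± 0.16, edgeR adjusted p = 2.7e-08). *Ccdc36*, whose protein IHO1 is needed for break formation, had 21.9, 23.0, 89.8 and 67.4 CPM (−1.70), and *Mei4*, for another such protein, had 7.52, 9.71, 36.5 and 23.9 CPM (−1.61). *Spo11*, for the enzyme that makes the breaks, went the opposite way, with 118, 95.3, 28.1 and 56.2 CPM (1.22 ± 0.24, edgeR adjusted p = 0.00014). Among members with a *Prdm9* UMI, 1 and 2 of the 8 passed, with a median of −0.27.

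Of 18 strand-exchange genes tested, 3 passed toward wild type and 7 toward *Meioc*-null, with a median of −0.34. The 3 were *Mnd1*, *Swi5* and *Psmc3ip*, which act with the recombinases in strand exchange. *Swi5* had 1019.6, 998, 595 and 519.7 CPM (0.91), and *Psmc3ip* had 148, 167, 107 and 109.6 CPM (0.59, edgeR adjusted p = 0.0046), a call lost without wild-type replicate 2 (0.44). Toward *Meioc*-null, *Tex15*, needed for loading the recombinases, had 631, 599.9, 2177 and 2108 CPM (−1.75 ± 0.19, edgeR adjusted p = 2.7e-08). *Brca1* had 51.3, 51.8, 123 and 114 CPM (−1.14), and *Hsf2bp*, whose protein binds BRCA2, had 128, 127, 219 and 197 CPM (−0.64). In each of these 6 genes both libraries of the higher genotype were above both of the other. Among members with a *Prdm9* UMI the list counted 1 and 2, and with no *Fabp9* UMI 2 and 4.

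Of 13 axis and synaptonemal-complex genes tested, 1 passed toward wild type and 6 toward *Meioc*-null, with a median of −0.21. *Smc1b*, the meiotic cohesin gene whose promoter is shown above, had 1061, 1151, 2836 and 2517 CPM (−1.22 ± 0.20, edgeR adjusted p = 1.7e-05). The central-element genes *Syce1* (144, 139.5, 278 and 305 CPM, −1.01) and *Syce2* (314, 339, 567 and 642 CPM, −0.85) were also higher in both *Meioc*-null libraries. *Sycp2*, an axis gene, had 1073, 1341, 738 and 878 CPM (0.62), and its call was lost without wild-type replicate 2 (0.40) or *Meioc*-null replicate 1 (0.48). *Sycp3*, at 3714, 4371, 4623 and 4854 CPM (−0.18 ± 0.22, edgeR adjusted p = 0.55), did not pass the test. *Sycp1*, at 3351, 4449, 2859 and 3663 CPM, overlapped between genotypes (0.31, edgeR adjusted p = 0.29) and passed only with the littermate pair as a block (0.31, edgeR adjusted p = 0.0227). With a *Prdm9* UMI the list counted 0 and 3 calls, and with no *Fabp9* UMI 0 and 4.

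Of 11 crossover genes tested, 1 passed toward wild type and 5 toward *Meioc*-null, with a median of −0.67, and among members with a *Prdm9* UMI or with no *Fabp9* UMI each direction had 1. *Mlh3*, for a protein of the MutL complex that resolves crossovers, had 51.3, 44.6, 33.7 and 14 CPM (1.22), a call lost without *Meioc*-null replicate 2 (0.61). *Rnf212*, for a crossover factor, had 30.8, 27.7, 61.7 and 53.4 CPM (−0.92), and the X-linked *Tex11* had 156, 155, 224 and 277 CPM (−0.67), a call lost without *Meioc*-null replicate 2 (−0.41). Of 9 genes of telomere attachment to the nuclear envelope, 1 passed toward wild type and 4 toward *Meioc*-null, with a median of −0.53. *Majin*, for the membrane anchor of telomeres, had 19.1, 15.1, 70.1 and 66.0 CPM (−1.97 ± 0.28, edgeR adjusted p = 1.6e-06). *Sun1*, for a protein of the inner nuclear membrane, had 117, 92.4, 84.2 and 61.8 CPM (0.60), a call lost without wild-type replicate 1 (0.47) or *Meioc*-null replicate 2 (0.40). With a *Prdm9* UMI, as with no *Fabp9* UMI, 1 and 2 of the 9 telomere genes passed.

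Of 11 genes of meiotic entry and the preceding spermatogonial state, 6 were higher in *Meioc*-null and 0 in wild type, with a median of −0.45, and among members with a *Prdm9* UMI 4 and 1 were. *Stra8* had 292, 131, 1044 and 1140.5 CPM (−2.36 ± 0.35, edgeR adjusted p = 0.0024), and a *Stra8* UMI was present in 25.5% of wild-type and 97.1% of *Meioc*-null members, against 5.86 to 18.1% of Sertoli-gated barcodes, which had medians of 2964 to 9069.5 UMIs. With each cell thinned to 5000 UMIs, the shares were 20.4, 15.2, 100 and 95.2% of members and 1.32 to 11.4% of Sertoli-gated barcodes, leaving out 2, 1, 1 and 0 shallower members. The wild-type values differed by more than 2 times from each other, and the call was lost without *Meioc*-null replicate 1 (−2.46), without *Meioc*-null replicate 2 (−2.24) and with the littermate pair as a block (−2.46, edgeR adjusted p = 0.16). *Gm4969*, the gene of MEIOSIN, had 15.7, 18, 72.9 and 104 CPM (−2.38 ± 0.26, edgeR adjusted p = 3.0e-08). The X-linked homeobox genes *Esx1* (67.0, 39.6, 300.2 and 202 CPM, −2.21) and *Rhox13* (154, 124, 325 and 253 CPM, −0.99) were both higher in *Meioc*-null. In each of these genes both *Meioc*-null libraries were above both wild-type ones.

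Genes of the cell cycle formed the longest lists. Of 36 S phase genes tested, 26 were higher in *Meioc*-null and 1 in wild type, with a median of −0.74, and among members with a *Prdm9* UMI 11 and 0 were, with a median of −0.38. *Mcm6*, for a subunit of the replicative helicase, had 52.6, 46.8, 166 and 176 CPM (−1.76 ± 0.18, edgeR adjusted p = 3.5e-09). *Rrm2*, for a ribonucleotide reductase subunit, had 42.4, 21.2, 115 and 129 CPM (−2.03), *Usp1* had 51.9, 50, 191 and 208 CPM (−1.94), and *Hells* had 424, 528, 923 and 1091 CPM (−1.03). In each, both *Meioc*-null libraries were above both wild-type ones. Among members with no *Fabp9* UMI, 18 of the 36 were higher in *Meioc*-null and 0 in wild type.

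Of 48 G2/M phase genes tested, 25 were higher in *Meioc*-null and 5 in wild type, with a median of −0.56, although *Plk1* and *Ccnb1* had limited the members. The 5 were *Aurka*, *Nek2*, *Cdc20*, *Cdk1* and *Nuf2*, the last of which passed in 9 of the 17 settings in which it was fitted. *Cdk1*, for the kinase of the G2/M transition, had 166, 188, 67.3 and 91.3 CPM (1.15 ± 0.18, edgeR adjusted p = 6.2e-06), and *Cdc20*, for an activator of the anaphase-promoting complex, had 284, 275, 140.3 and 124 CPM (1.15). *Kif23*, for a kinesin of cytokinesis, had 64.9, 61.9, 247 and 191 CPM (−1.70) and was among the 25. With a *Prdm9* UMI, 1 gene of the list passed toward wild type and 22 toward *Meioc*-null, and with no *Fabp9* UMI 3 and 25. In leptotene-like cells 0 of 47 passed toward wild type and 31 toward *Meioc*-null, with a median of −0.60, so this excess was not particular to members. Of 7 cyclin genes tested, 4 were higher in *Meioc*-null and 0 in wild type, with a median of −1.0. *Ccna2* had 21.2, 15.1, 53.3 and 49.2 CPM (−1.49) and *Ccne2* had 121, 117, 373 and 246 CPM (−1.27). *Ccnb3*, with the values given above, had a log2 fold change of −1.26 ± 0.13 (edgeR adjusted p = 7.1e-09).

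Of 7 genes of the p53 response and cell death tested, 1 passed toward wild type and 4 toward *Meioc*-null, with a median of −1.16. *Mdm2*, for the ligase that limits p53, had 200.2, 179.8, 98.2 and 61.8 CPM (1.38). *Chek1*, for a checkpoint kinase that also acts in S phase, had 27.3, 18.7, 61.7 and 60.4 CPM (−1.41). Known p53 target genes thus lay on both sides, with *Mdm2* higher in wild type and *Rrm2b*, which was in no list, higher in *Meioc*-null. With a *Prdm9* UMI, 1 gene of this list passed in each direction out of 6 tested.

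The proteasome list, to which *Psma8* belongs, had 17 other genes tested, of which 7 passed toward wild type and 1 toward *Meioc*-null, with a median of 0.29. *Psma2*, for an alpha subunit of the core particle, had 273, 266, 163 and 198 CPM (0.59 ± 0.14, edgeR adjusted p = 0.0015), and *Psmb4*, for a beta subunit, was the 1 gene higher in *Meioc*-null, with 258, 236, 382 and 367 CPM (−0.56). Among members with a *Prdm9* UMI none of 18 proteasome genes passed in either direction by edgeR, and with no *Fabp9* UMI 1 passed in each. Of the 12 piRNA pathway genes tested, 7 passed toward wild type and 1, *Tdrkh*, toward *Meioc*-null, with a median of 0.61. *Piwil2*, for a PIWI protein, had 289, 250.3, 123 and 103 CPM (1.32), and *Tdrd5*, for a Tudor protein of piRNA processing, had 60.1, 51.4, 11.2 and 11.2 CPM (2.33). *Mov10l1*, for the helicase that feeds piRNA precursors, had 718, 829, 466 and 439.6 CPM (0.83), and *Tdrd9* had 82.0, 68.7, 33.7 and 19.7 CPM (1.64). *Tdrkh* had 166, 179, 264 and 237 CPM (−0.47), a call lost without wild-type replicate 1 (−0.39). Both libraries of the higher genotype were above both of the other in each of these piRNA genes. With a *Prdm9* UMI 2 and 1 piRNA genes passed, and with no *Fabp9* UMI 4 and 1.

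Of 6 pachytene genes tested, 4 passed toward wild type and 2 toward *Meioc*-null, with a median of 1.34. *Hspa2* had 309, 282, 89.8 and 82.9 CPM (1.83 ± 0.16, edgeR adjusted p = 2.4e-10), and its level in Sertoli-gated barcodes was 56.5 to 77.0 CPM. *Tesmin* had 374, 349.6, 123 and 138 CPM (1.49), *Tbpl1*, for a TBP-related factor, 154, 143, 64.5 and 67.4 CPM (1.20), and *Ldhc*, for the germ-cell lactate dehydrogenase, 67.0, 44.6, 14 and 8.43 CPM (2.41). *Ldhc* also reached 37.3 CPM in Sertoli-gated barcodes of wild-type replicate 1 and 4.19, 0 and 0 CPM in the others. *Mybl1*, for a transcription factor of pachytene genes, went the opposite way at 138, 135, 337 and 275 CPM (−1.09), as did *Mns1*, at 84.1, 75.2, 146 and 105 CPM (−0.56), whose call was lost without wild-type replicate 2 (−0.52) or *Meioc*-null replicate 1 (−0.40). Among members with a *Prdm9* UMI 4 and 1 of the 6 passed. The 11 pachytene genes of the list that the rule did not use summed to 1167, 1047, 786 and 680 CPM in members, or to 1255, 1124, 791 and 694 CPM with *Fabp9*, which the rule used.

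Of 5 surface protein genes of the LY6 family tested, 2 passed toward wild type and 1 toward *Meioc*-null, with a median of −0.43. *Gml* had 353, 333, 75.7 and 73.0 CPM (2.25 ± 0.16, edgeR adjusted p = 5.3e-12), and *Gml2* had 217, 203, 78.6 and 80.1 CPM (1.44). *Gml* and *Gml2* are paralogs on chromosome 15, so reads shared between them would make both counts uncertain. *Lypd4* had 15.0, 12.6, 67.3 and 28.1 CPM (−1.59), with *Meioc*-null replicate 1 the highest, and its call was lost without that library (−1.03). *Ly6k* (−0.43 ± 0.19, edgeR adjusted p = 0.066) and *Tex101* (−0.44 ± 0.21, edgeR adjusted p = 0.094) did not pass, but both passed with the littermate pair as a block, with adjusted p of 0.00069 and 0.00059. Among members with a *Prdm9* UMI, as with no *Fabp9* UMI, 2 of the 5 passed in each direction. Of 5 germ-cell genes tested, 2 (*Mael* and *Tdrd1*) passed toward wild type and 0 toward *Meioc*-null, with a median of 0.29. With no *Fabp9* UMI 1 of them passed toward wild type, and with a *Prdm9* UMI neither did by edgeR. *Mael* passed in 7 of the 17 settings in which it was fitted.

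**Figure D4:**
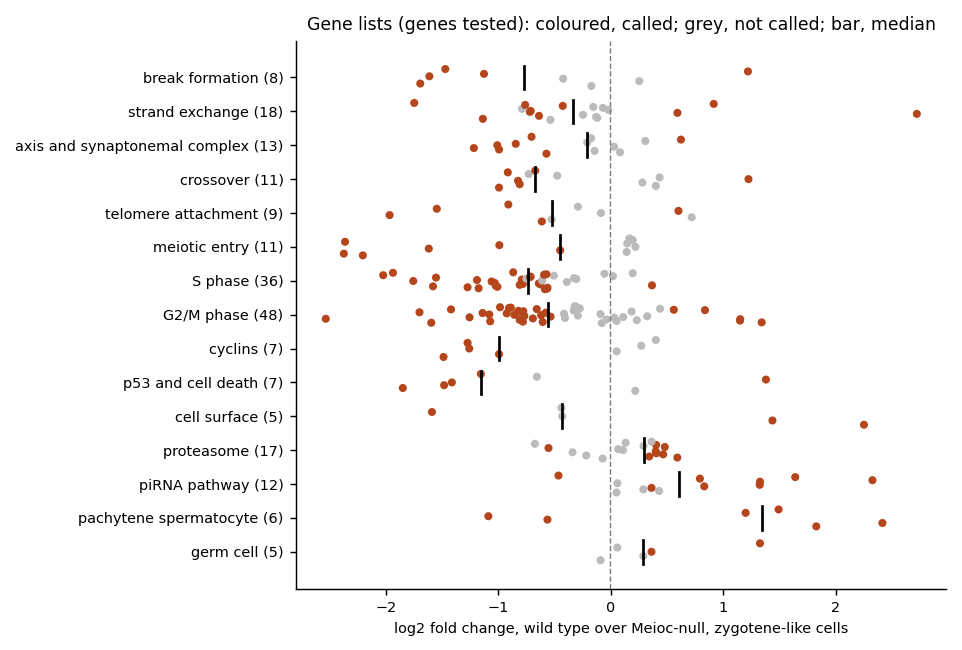
Log2 fold change of wild type over *Meioc*-null in members for every gene tested in 15 lists, 1 point per gene, coloured where it passed the test and grey where it did not, with a bar at the list's median. S phase (median −0.74), G2/M phase (−0.56) and break-formation genes (−0.78) lie mostly to the left, toward *Meioc*-null, and pachytene (1.34) and piRNA genes (0.61) mostly to the right.

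Because leptotene-like cells of the same libraries could be tested too, the difference of the genotype effect between both classes was itself tested, with each library as a block. In leptotene-like cells 511 of 5681 genes passed toward wild type (8.99%) and 785 toward *Meioc*-null (13.8%). With the littermate pair as a block these counts were 1319 and 1506, beside 1524 and 1598 in members. The effect differed between members and leptotene-like cells for 1987 of 6815 genes (29.2%), with 887 shifted toward wild type in members (13.0%) and 1100 toward *Meioc*-null (16.1%), by edgeR with an adjusted p under 0.05. Without the detection filter 953 and 790 genes did, so the larger share was then toward wild type. Members of the genotypes differed in the genes of the rule, as given above, so this test compares the cells that the rule left in each genotype.

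Shifts were ranked among genes that passed, with at least 50 CPM in a class and genotype and the same direction in both batches. Among the largest shifts toward wild type were those of *Gm10505*, *Mnd1*, *Brd1*, *Aurka* and *Dync2li1*. *Mnd1* was at 22.7, 21.8, 25.4 and 20.8 CPM in leptotene-like cells, so the wild-type libraries alone were higher in members (111, 127, 16.8 and 19.7 CPM), with a difference of effects of 2.69 ± 0.32 (log2 scale, edgeR adjusted p = 3.5e-09). *Aurka*, for a kinase of spindle assembly, was at 14.5, 12.5, 35.4 and 27.9 CPM in leptotene-like cells and 52.6, 53.2, 19.6 and 22.5 CPM in members (2.49), so the order of the genotypes turned over. *Cdc20* turned over too, from 68.3, 65.6, 149 and 145 CPM to 284, 275, 140.3 and 124 CPM (2.23 ± 0.16, edgeR adjusted p = 9.3e-16). *Cdk1* went from 40.2, 39.9, 70.9 and 72.9 CPM to 166, 188, 67.3 and 91.3 CPM (1.96). *Aurka*, *Cdc20* and *Cdk1* are genes of the G2/M list, and the rule limits *Plk1* and *Ccnb1*. That limit removed a larger share of *Meioc*-null barcodes from both classes, as given above, and its part in these shifts was not tested. *Dync2li1*, for a subunit of the ciliary dynein, was at 7.39 to 7.91 CPM in leptotene-like cells of every library and at 57.4, 56.8, 8.42 and 11.2 CPM in members (2.48).

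By the same limits, the largest shifts toward *Meioc*-null were those of *Snrpn*, *Rbpms2*, *Nacad*, *Kmt5c*, *Gm4969* and *Stxbp5l*. *Rbpms2*, for an RNA-binding protein, was at 248, 199.8, 195 and 201 CPM in leptotene-like cells and at 43.7, 39.2, 272 and 177 CPM in members (−2.53 ± 0.19, edgeR adjusted p = 1.6e-13). *Gm4969* was at 86.3, 88.5, 91.4 and 107 CPM in leptotene-like cells and at 15.7, 18, 72.9 and 104 CPM in members (−2.23). *Kmt5c*, for a histone H4 lysine methyltransferase, went from 90.4, 59.5, 75 and 65.4 CPM to 14.4, 9.71, 64.5 and 46.3 CPM (−2.26). In these 3 genes the genotypes had close levels in leptotene-like cells, and the wild-type libraries alone were far lower in members. *Snrpn* differed from them, since its *Meioc*-null level was higher in members (72.9 and 60.4 CPM) than in leptotene-like cells (20.1 and 26.1 CPM).

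Several prophase genes also shifted toward *Meioc*-null in members. *Zcwpw1* was at 1069, 1167, 799 and 990.0 CPM in leptotene-like cells (difference of effects −1.86 ± 0.13, edgeR adjusted p = 1.4e-15), *Tex15* at 1855, 2048, 2266 and 2268 CPM (−1.60), *Smc1b* at 2380.2, 2548, 1930.0 and 2271 CPM (−1.51) and *Syce2* at 950.1, 978, 591 and 699 CPM (−1.48). For *Zcwpw1*, *Smc1b* and *Syce2* the wild-type libraries were the higher ones in leptotene-like cells and the lower ones in members. For *Tex15* they were the lower ones in both classes. *Stra8* was already higher in *Meioc*-null leptotene-like cells, at 1224, 817, 2154 and 1965 CPM, and its effect was larger in members by 1.46 (difference of effects −1.46 ± 0.15). By list, the effect shifted toward *Meioc*-null for 5 of 9 break-formation, 9 of 18 strand-exchange, 8 of 14 axis and synaptonemal-complex, 6 of 11 crossover, 6 of 9 telomere and 24 of 38 S phase genes. It shifted toward wild type for 0, 2, 0, 2, 0 and 0 of them. Of the 48 G2/M genes, 11 shifted toward wild type and 12 toward *Meioc*-null, and of the proteasome list 6 and 1 of 18. The effects of *Ccnb3* (−1.29, edgeR adjusted p = 0.098) and *Ly6k* (−0.20, 0.25) were not shown to differ between the classes, and that of *Tex101* did (−0.43, edgeR adjusted p = 0.0077).

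The promoters of genes called in members were compared as a description. Of the tested genes that had a promoter in the table (5454), 13.1% held the E-box, 11.9% the E2F site and 31.9% the STRA8-MEIOSIN core. Of the 1066 such genes higher in wild type, 13.8, 10.4 and 26.8% held them, and of the 1179 higher in *Meioc*-null 12.4, 13.7 and 38.8%. Among the 9 of the 12 genes with the largest difference toward *Meioc*-null that had a promoter, 0 held the core, and among the 8 toward wild type 4 did.

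The share of X-linked transcripts was followed because silencing of the sex chromosomes comes after zygotene. X-linked genes made up 2.38 and 2.28% of nuclear UMIs in wild-type members and 3.50 and 3.32% in *Meioc*-null members. Both wild-type shares were below both *Meioc*-null shares, with means of 2.33% ± 0.0701 and 3.41% ± 0.126 (SD, n = 2) and differences of −1.12 and −1.04 percentage points within the batches. The exact permutation test gave its smallest possible p of 0.33. In leptotene-like cells the shares were 2.66, 2.74, 2.87 and 2.94%, and in cells with 1 *Psma8* UMI 2.75, 2.82, 3.14 and 3.23%. The genotypes therefore did not overlap in these classes either. Wild-type pachytene-like cells had 0.280 and 0.402%, and Sertoli-gated barcodes 3.93 to 4.16%. From leptotene-like cells to members the share changed by −0.283, −0.466, 0.629 and 0.382 percentage points, which is lower in both wild-type and higher in both *Meioc*-null libraries (exact permutation p = 0.33). The wild-type direction did not hold throughout in subsets of members. With no *Fabp9* UMI the shares were 2.87, 2.86, 3.51 and 3.27%, so both wild-type values were above their leptotene-like ones. With a *Prdm9* UMI they were 2.91, 2.67, 3.42 and 3.29%, with wild type 1 above and wild type 2 below. In both subsets *Meioc*-null remained above wild type. The difference of the genotype means was −0.53 and −0.56 percentage points there, −0.57 at a meiotic sum of 8 per 10000 (wild type 2.68 and 2.99%) and −0.66 with at least 1 *Psma8* UMI, against −1.08 with the rule as given.

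**Figure D5:**
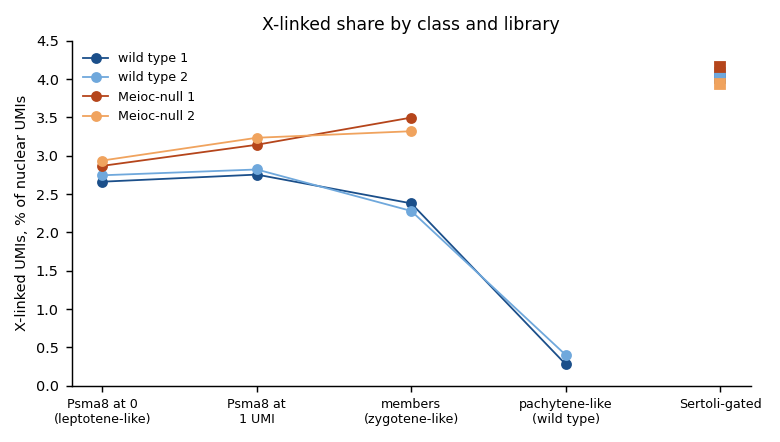
Percentage of nuclear UMIs from X-linked genes, 1 line per library, in leptotene-like cells, cells with 1 *Psma8* UMI, members and wild-type pachytene-like cells, with squares for Sertoli-gated barcodes. The *Meioc*-null lines lie above the wild-type lines in all 3 classes that both genotypes have, with a difference of means (wild type minus *Meioc*-null) of −0.200 percentage points in leptotene-like cells and −1.08 in members, where wild type is at 2.38 and 2.28% and *Meioc*-null at 3.50 and 3.32%.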

How the data were processed

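The authors prepared 10x Genomics 3′ libraries, aligned and counted reads with Cell Ranger 4.0.0 against its mm10 (GRCm38) reference and deposited raw UMI counts per gene and barcode, with no normalization. Gene chromosomes were taken from GENCODE, GRCm38. The members and the gene lists were chosen with earlier results of these data known. No doublets were removed; Scrublet (scanpy 1.11.5), taking 0.8% per 1000 barcodes, was an alternative. Counts were summed per library over members and tested with edgeR 4.0.16 (TMM, robust quasi-likelihood, R 4.3.3) for genes detected in 25% or more of the members of a genotype, without the genes of the rule. A call needed a Benjamini-Hochberg adjusted p under 0.05 and an absolute log2 fold change over 0.1. The difference between classes was tested on 8 sums with library as a block. Replicates were separate pups. With so few pups, edgeR draws on the spread of all genes, so p-values do not rest on a gene's own spread between pups alone. In the test between classes, the library block also takes out differences in a gene's level between pups. Sertoli-gated barcodes had at least 5 UMIs of *Sox9*, *Cldn11*, *Aard* and *Rhox8* and none of *Ddx4* and *Dazl*. Named genes were the marker and list genes, the 12 largest called differences in each direction with at least 50 CPM in a genotype and the same direction in both batches, the 6 largest differences between classes by the same rule and the 10 largest wild-type ratios of members to leptotene-like cells; list genes given with values were picked with their values known, and a few genes that these rules name are not reported here. The labels pair the replicates as littermates, and the deviations of paired libraries from their genotype means correlated over 6688 genes with r = 0.146. Alternatives covered the limits of the rule, the detection filter, DESeq2 1.42.0, the littermate block, Bonferroni adjustment and leaving out each library. The edgeR steps were tested on simulated data.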

Additional observations from a re-analysis of the deposited data

Results flagged for a closer look

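The genotype effect differed between zygotene-like and leptotene-like cells for 1987 genes by the interaction test of edgeR, which is what drew attention to them. The difference of effects (log2, zygotene-like minus leptotene-like, wild type over *Meioc*-null) was 9.38 for *Gm10505*, a fitted value that rests on 0 *Meioc*-null UMIs and is no bound, and this call was lost without *Meioc*-null replicate 1 (8.88). It was 2.69 for *Mnd1*, 2.64 for *Brd1*, 2.49 for *Aurka* and 2.48 for *Dync2li1*. In the other direction it was −2.54 for *Snrpn*, −2.53 for *Rbpms2*, −2.36 for *Nacad*, −2.26 for *Kmt5c*, −2.23 for *Gm4969* and −2.23 for *Stxbp5l*.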

How the results depend on the processing

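The member counts, 28 and 42 in *Meioc*-null, limit every comparison. The following values moved, and the cause was not tested. Genes called in members (2734; 1314 higher in wild type, 1420 in *Meioc*-null) became 1461 (689, 772) at a meiotic sum of 8 per 10000, 1319 (593, 726) with a *Prdm9* UMI, 1694 (771, 923) with no *Fabp9* UMI, 1289 (579, 710) with DESeq2, 604 (248, 356) with Bonferroni adjustment and 1834 to 2300 (902 to 1112, 932 to 1209) without 1 library. With the replicate block (littermate pair), calls in members were 1524 and 1598, and those in leptotene-like cells (1296; 511, 785) became 2825 (1319, 1506). Leptotene-like calls became 143 (67, 76) at a 5% mitochondrial limit, 815 toward wild type at a meiotic sum of 8, 2481 (1094, 1387) without the detection filter and 26 (2, 24) with Bonferroni adjustment. Differences between classes (1987; 887, 1100) became 977 (369, 608) at a meiotic sum of 8, 817 (324, 493) with DESeq2, 442 (150, 292) with Bonferroni adjustment and 1136 to 1424 (470 to 676, 625 to 748) without 1 library. The difference in median UMIs (−478) turned to 4127.25 at a 5% mitochondrial limit and ranged from −1823.5 to 867.5 without 1 library. Of 200 genes of the lists tested, the block added 15 calls, *Ly6k*, *Tex101* and *Sycp1* among them, and removed that of *Stra8*. Over all alternatives, values of named genes in members kept their direction and side of the threshold in 1273 cases, lost the call in 100 and gained it in 10. The test could not be run with at least 3 *Psma8* UMIs (4 and 9 *Meioc*-null members), at a 5% mitochondrial limit (1 and 2) or after thinning to 5000 UMIs before the gate (6 and 15), since it needed 20 members per library.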
